A study of Mus musculus with 4 samples.

Results

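Tcf21, Meis1, Meis2, Meis3, Pbx2, Pbx3, Tbx18 and Tbx2 encode transcription factors found in the stroma and mesenchyme of developing organs. They were read on every probe set that the array annotation assigns to 1 of these 8 genes, which gave 18 of the 45037 probe sets, and 8 of the 18193 genes that have a probe set of their own. No probe set that is assigned to several genes names any of them. The cells came from the mouse ES cell line EB3 (strain 129/Ola) carrying GFP under the ubiquitous CAG promoter, and were differentiated with Activin at 10 ng/mL through embryoid bodies for 18 days. On day 18 they were sorted with an antibody against KSP, the cadherin of kidney epithelium encoded by Cdh16, into KSP-positive cells (2 arrays) and KSP-negative cells (2 arrays). Both fractions were alive and positive for GFP, and both had received Activin. The arrays come from 2 independent experiments with 1 ES cell line, and the KSP-negative fraction holds every other live GFP-positive cell of the culture. The question was in what respects the KSP-positive cells differ from the rest of the culture.

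Tcf21 is a basic helix-loop-helix factor that, in the mouse, is needed in the mesenchyme of kidney and lung and in podocytes. It binds DNA together with E proteins. Meis and Pbx proteins are homeodomain factors of the TALE class, which bind DNA as partners of each other and of Hox proteins. Tbx18 and Tbx2 belong to the T-box family. In mouse embryos Tbx18 marks the mesenchyme around the ureter and the epicardium, and Tbx2 is a repressor in several mesenchymal tissues.

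The promoters of 6 of the 8 genes were matched in RefSeq (build GRCm38.p6). Those of Tcf21, Meis2 and Pbx2 are printed because these genes had probe sets over 2-fold higher (Tcf21, Meis2) or lower (Pbx2) in KSP-positive cells. Pbx3 also had a probe set over 2-fold higher, but its promoter was not among the 6 matched. Each is the run of 250 bases before the annotated start, and capitals mark CG dinucleotides.
Tcf21, chr10:22820144-22820393, minus strand: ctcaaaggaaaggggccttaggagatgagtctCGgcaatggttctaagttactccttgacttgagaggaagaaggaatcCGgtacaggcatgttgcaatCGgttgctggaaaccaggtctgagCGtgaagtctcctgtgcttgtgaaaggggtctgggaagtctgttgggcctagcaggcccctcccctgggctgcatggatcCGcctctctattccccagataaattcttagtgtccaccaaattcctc
Meis2, chr2:116064620-116064869, minus strand: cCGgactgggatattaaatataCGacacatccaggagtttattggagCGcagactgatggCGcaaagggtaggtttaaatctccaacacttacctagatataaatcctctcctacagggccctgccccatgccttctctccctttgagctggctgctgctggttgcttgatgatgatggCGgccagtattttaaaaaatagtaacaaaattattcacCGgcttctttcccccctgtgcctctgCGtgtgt
Pbx2, chr17:34592009-34592258, plus strand: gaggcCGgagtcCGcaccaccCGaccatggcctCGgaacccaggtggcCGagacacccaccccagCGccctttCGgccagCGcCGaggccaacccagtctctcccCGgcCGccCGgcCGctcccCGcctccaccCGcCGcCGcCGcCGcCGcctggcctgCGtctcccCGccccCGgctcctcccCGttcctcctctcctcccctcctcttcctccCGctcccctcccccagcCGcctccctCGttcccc
The Tcf21 run holds 5 CG dinucleotides, the Meis2 run 7 and the Pbx2 run 27, against a median of 6 over the 32851 RefSeq promoters. Meis1, Meis3 and Tbx18 have 13, 12 and 15. The E-box CANNTG, the letters read by helix-loop-helix dimers, occurs once each in the Meis1, Pbx2 and Tbx18 runs and in 66.2% of all promoters. It does not occur in the runs of Tcf21, Meis2 and Meis3. Searched on both strands, the Meis core TGACAG (15.9% of all promoters) and the T-box motif GGTGTGA (3.33%) are absent from these 6 windows.

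Levels are MAS5 signals, scaled so that the 75th percentile of each array was 280.9, and values under 12.3 were raised to this floor. Differences are on the log2 scale, KSP-positive minus KSP-negative, from a limma fit over the 27022 probe sets whose mean passed a filter, with p adjusted over all of them by Benjamini and Hochberg. Signals of different probe sets are not compared as amounts of RNA, since probes differ in brightness. Cdh16, which encodes the sort marker, had signals of 50.5 and 32.6 in KSP-positive cells and 39.3 and 26.3 in KSP-negative cells, with overlap (difference 0.34, limma adjusted p = 0.857). These values lay close to the filter, at a signal of 35.4, and a difference in Cdh16 RNA could be missed at this level. Correlations between arrays ran from 0.85 to 0.93 across probe sets, and the actin 3' to 5' signal ratio, which rises when RNA or labelled product is shortened, was 2.92 and 1.80 in the KSP-positive arrays and 1.79 and 3.55 in the KSP-negative arrays. No source ties the replicate numbers to the experiments, and p-values measure the spread between these 4 arrays only.

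Of the 18 probe sets, 17 passed the filter. Both KSP-positive arrays lay above both KSP-negative arrays for 9 of the 17, where 20.9% of all tested probe sets did so, and below them for 4, where 23.2% did. Differences over 2-fold were found for 3 higher probe sets, 1 each of Tcf21, Meis2 and Pbx3 (7.38% of all tested probe sets), and for 1 lower probe set, of Pbx2 (6.95%). At an adjusted p under 0.05 limma called 0 of the 17 (0.307% of all probe sets were called higher and 0.296% lower), and at an unadjusted p under 0.05 it called the same 3 higher and 1 lower (6.70% and 6.41% of all). The methods' t-test gave 4 higher and 1 lower without adjustment (4.09% of all tested probe sets in each direction) and 0 after it. Its 4 were the same 3 and Meis3, and its lower one was the second probe set of Tcf21, 1458887_at, and not that of Pbx2. This test thus put the 2 probe sets of Tcf21 on opposite sides. The paper lists this test among its general statistics and reports no such test on the arrays, whose genes it sorted by fold. Here it was run on the scaled log2 signals, and the adjustment was added, so these counts are not results of the paper. The median difference of the 17 was 0.48, against -0.03 over all tested probe sets. Probe sets of 1 gene share its transcripts and are not independent, and the genes were chosen with earlier results known.

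**Figure D1:**
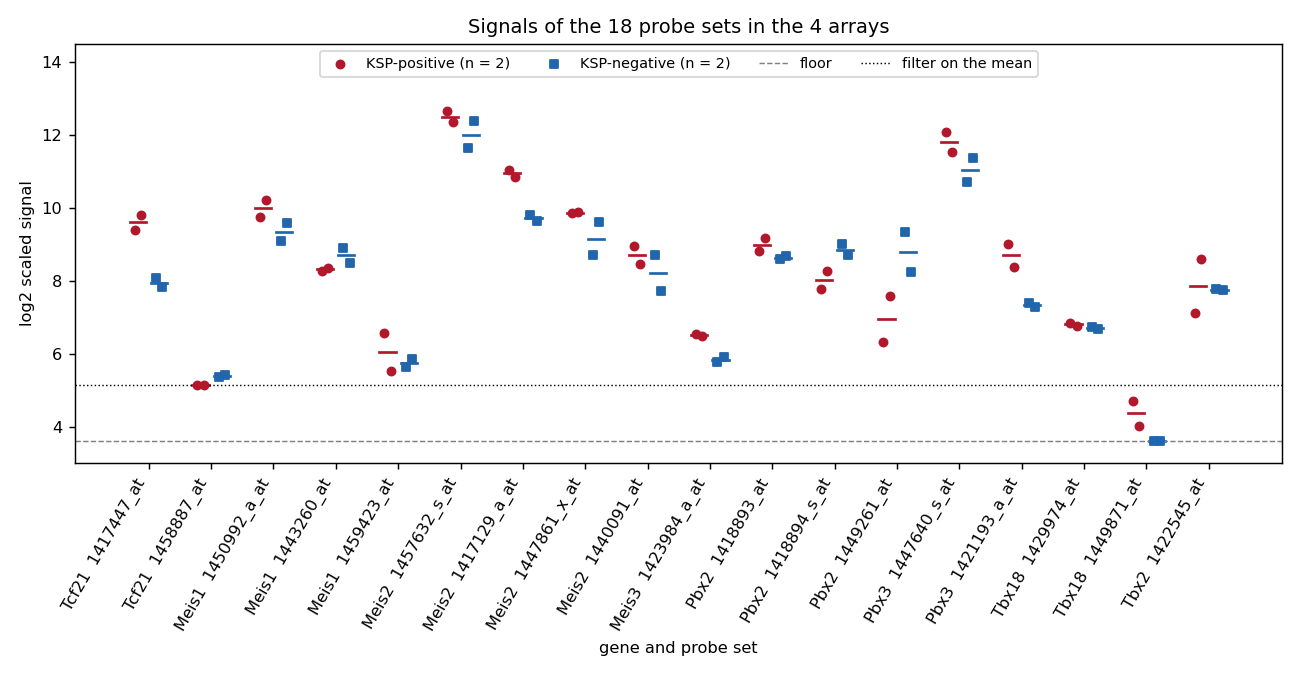
Log2 scaled signal (vertical axis) of the 18 probe sets (horizontal axis), with red circles for the 2 KSP-positive arrays, blue squares for the 2 KSP-negative arrays, replicate 1 left of replicate 2, and bars for means; dashed and dotted lines mark the floor and the filter. For 1417447_at of Tcf21, signals of 679.9 and 891 in KSP-positive cells stand clear of 271 and 227 in KSP-negative cells, and for 1449871_at of Tbx18 both KSP-negative arrays are at the floor.

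Tcf21 was higher in KSP-positive cells on 1 of its 2 probe sets. 1417447_at had signals of 679.9 and 891 in KSP-positive cells, against 271 and 227 in KSP-negative cells. The groups lay far apart, with little spread inside either. The log2 difference was 1.65 (standard error 0.36, 95% confidence interval 0.83 to 2.47), a 3.14-fold higher mean, with an adjusted p = 0.0960 from limma. It was 0.0331 in a fit with 1 probe set, the brightest, for each of 12849 genes. The difference stayed between 1.46 and 1.84 when any 1 array was left out. The paper's heat map of kidney development genes was drawn from these same arrays, so the direction of Tcf21 here is not independent evidence. The second probe set, 1458887_at, had signals of 35.5 and 35.6 in KSP-positive cells, against 41.5 and 42.4 in KSP-negative cells. These values lay close to the filter at a signal of 35.4, and the difference of -0.24 (interval -1.43 to 0.95) went the other way. With both probe sets averaged, Tcf21 had a difference of 0.70 (limma adjusted p = 0.310).

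The genes whose signals followed Tcf21 most closely over the 4 arrays were Msc, Srpk3 and Tnfsf9. Likeness was the root mean square difference of log2 signals, each centred on its mean, over 12849 genes, and the values were 0.070, 0.072 and 0.073. Msc encodes musculin, a repressor that is a near relative of Tcf21 in the helix-loop-helix family. Its signals were 334 and 402 in KSP-positive cells, against 134 and 117 in KSP-negative cells. As for Tcf21, the groups were well apart and replicate 2 was the higher KSP-positive array and the lower KSP-negative array. In each fraction both genes were lower in the array with the higher actin 3' to 5' ratio (2.92 and 3.55). The part of that ratio in their likeness was not tested. The difference of Msc was 1.55 (standard error 0.38, limma adjusted p = 0.127, and 0.0478 with 1 probe set per gene). Srpk3, a kinase known from muscle, and Tnfsf9, a ligand of the TNF family, had differences of 1.63 and 1.53. With 4 arrays in 2 groups, likeness mostly reads the difference between the groups and its size.

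**Figure D2:**
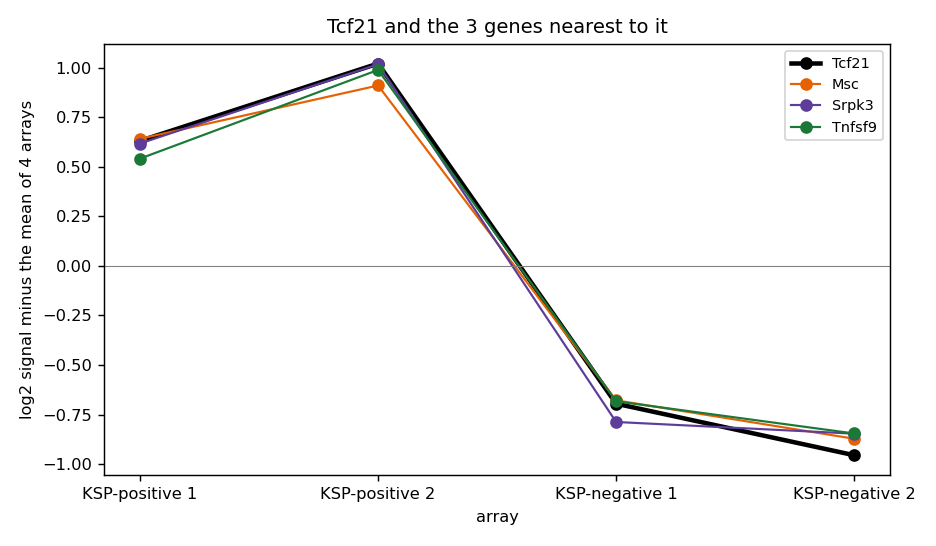
Log2 signal minus the mean of the 4 arrays (vertical axis) in each array (horizontal axis) for 1417447_at of Tcf21 (black) and the 3 genes nearest to it by root mean square difference. Msc, Srpk3 and Tnfsf9 keep within 0.070 to 0.073 of Tcf21 by this measure, high in both KSP-positive arrays and low in both KSP-negative arrays.

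Meis2 was higher in KSP-positive cells by the means of its 4 probe sets, to different degrees. The probe set 1417129_a_at, whose suffix marks probes common to transcripts of 1 gene, had signals of 2114 and 1860.1 in KSP-positive cells, against 901 and 805 in KSP-negative cells. The groups were clearly apart, and the difference was 1.22 (standard error 0.32, interval 0.49 to 1.95, a 2.33-fold higher mean, limma adjusted p = 0.153). For 1447861_x_at the signals were 928 and 941 in KSP-positive cells, against 418 and 779 in KSP-negative cells. KSP-negative replicate 2 came near the KSP-positive arrays here, and the difference of 0.71 was 0.26 when KSP-negative replicate 1 was left out and 1.16 when replicate 2 was. On 1457632_s_at the signals of 6431 and 5279 in KSP-positive cells overlapped those of 3188 and 5315 in KSP-negative cells (difference 0.50). That difference was 0.13 when KSP-negative replicate 1 was left out and 0.87 when replicate 2 was. On 1440091_at, 494 and 351 in KSP-positive cells overlapped 421 and 213 in KSP-negative cells (difference 0.48), and without KSP-negative replicate 2 this difference was -0.014. Suffixes s and x mark probe sets with probes that can also match other transcripts.

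Meis1 is a factor of blood stem cells and of renal stroma, and its 3 probe sets differed in direction. 1450992_a_at had signals of 859 and 1199 in KSP-positive cells, against 547 and 769.6 in KSP-negative cells. The groups did not overlap, but the difference of 0.65 had an interval of -0.19 to 1.48 (limma adjusted p = 0.507). 1443260_at had signals of 310.4 and 327 in KSP-positive cells, against 480.1 and 362 in KSP-negative cells. Here the KSP-positive arrays were the lower ones (difference -0.39, interval -1.22 to 0.44). The third, 1459423_at, was set apart by KSP-positive replicate 1 alone, with 95.9 and 45.7 in KSP-positive cells, against 49.9 and 57.8 in KSP-negative cells (difference 0.30, and -0.23 once that array was left out). Meis3, a relative studied mainly in the hindbrain, had 1 probe set with signals of 92.65 and 90.0 in KSP-positive cells, against 54.6 and 59.7 in KSP-negative cells. These replicates lay close together, and the difference was 0.68 (interval -0.35 to 1.70, limma adjusted p = 0.583).

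Pbx3 was higher in KSP-positive cells on both probe sets, without overlap. On 1421193_a_at the signals were 512 and 336 in KSP-positive cells, against 169 and 156 in KSP-negative cells. KSP-positive replicate 1 stood above replicate 2, and the difference was 1.35 (standard error 0.39, interval 0.46 to 2.24, a 2.55-fold higher mean, limma adjusted p = 0.190). On 1447640_s_at the signals were 4345 and 2987 in KSP-positive cells, against 1689.6 and 2628 in KSP-negative cells. This difference was smaller, 0.77 (interval -0.05 to 1.60), and was 0.46 without KSP-negative replicate 1.

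The 3 probe sets of Pbx2, a more broadly expressed relative, did not move together. 1449261_at had signals of 79.8 and 192 in KSP-positive cells, against 652 and 305 in KSP-negative cells. The KSP-positive arrays were the lower ones, and in each fraction the array with the higher actin 3' to 5' ratio, at 2.92 and 3.55, had the lower signal. The part of that ratio in the difference was not tested. The difference of -1.85 (standard error 0.54, interval -3.09 to -0.61, limma adjusted p = 0.195) was -2.48 without KSP-positive replicate 2, with an adjusted p = 0.0238. It was -1.22 without KSP-positive replicate 1. On 1418894_s_at the signals were 221 and 307 in KSP-positive cells, against 516 and 418 in KSP-negative cells, again lower (difference -0.84, interval -1.69 to 0.02). On 1418893_at they were 449.97 and 576 in KSP-positive cells, against 388 and 410.1 in KSP-negative cells, which is higher (difference 0.35, interval -0.45 to 1.16). The mean of the 3 gave -0.78 (limma adjusted p = 0.303), so a single direction for Pbx2 depends on the probe set. The order by actin ratio seen on 1449261_at also held for 1418894_s_at of Pbx2, 1417447_at of Tcf21, 1443260_at of Meis1 and 1422545_at of Tbx2. How often it holds over all probe sets was not counted.

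Tbx18 and Tbx2 showed little difference. On 1429974_at of Tbx18 the signals were 115 and 109 in KSP-positive cells, against 107 and 102 in KSP-negative cells. All 4 arrays were close together, and the difference of 0.10 had an interval of -0.84 to 1.04. On 1449871_at, under the filter and not tested, the signals were 26.2 and 16.2 in KSP-positive cells, and neither KSP-negative array exceeded the floor. Against that floor the KSP-positive mean was 1.68-fold higher. Tbx2, with 1 probe set, had signals of 139 and 387 in KSP-positive cells, against 219 and 215 in KSP-negative cells. The KSP-positive replicates lay on either side of the KSP-negative ones (difference 0.10, interval -1.07 to 1.26). Leaving out KSP-positive replicate 2 gave -0.64 and leaving out replicate 1 gave 0.84, so 1 array sets its sign. These intervals leave room for changes near 2-fold in either direction.

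**Figure D3:**
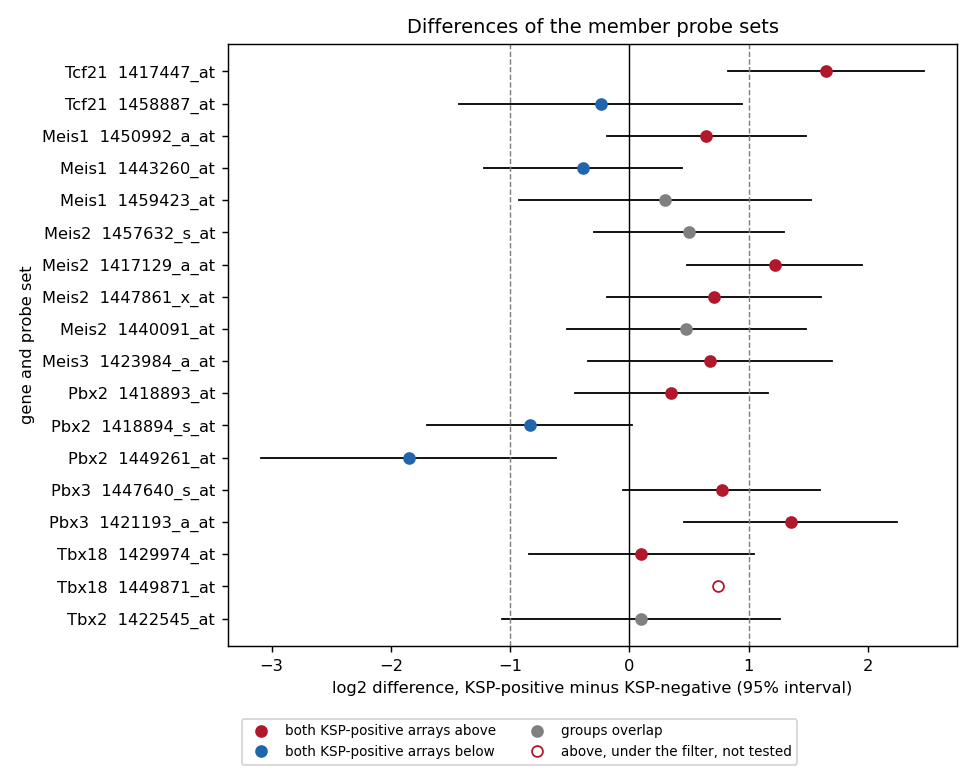
Log2 difference, KSP-positive minus KSP-negative (horizontal axis), with its 95% confidence interval from limma for each probe set (vertical axis, n = 2 arrays in each group); dashed lines mark 2-fold, and the open point was not tested. The intervals of 1417447_at (Tcf21), 1417129_a_at (Meis2), 1421193_a_at (Pbx3) and 1449261_at (Pbx2) do not include 0, the last of them on the lower side at -1.85.

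Other members of the same families were taken from lists, with the brightest probe set for each gene. Over all 12849 genes, 0.428% were called higher and 0.459% lower, 7.92% and 7.66% were over 2-fold higher and lower, and the median difference was -0.03. At an unadjusted p under 0.05 limma gave 1061 of the 12849 higher and 997 lower. Of 14 other TALE homeobox genes, 10 were tested, limma called none (0 higher and 2 lower without adjustment), and the median was -0.20. Pknox1 and Pknox2, partners of Pbx, had differences of 0.46 and 0.78. Tgif1, a repressor acting with Smad proteins, and Irx5 had -1.18 and -1.06 (adjusted p = 0.274 and 0.380), and were singled out after their values were seen. Of 15 other T-box genes, 8 were tested and 1 fell. This was Eomes, a factor of early mesoderm, endoderm and trophoblast, with signals of 113 and 247 in KSP-positive cells, against 1052 and 1839.8 in KSP-negative cells. Its difference was -3.06 (standard error 0.48, limma adjusted p = 0.0390, 0.0932 without KSP-negative replicate 2 and 0.0879 without the intensity trend of the fit).
Tbx3, the closest relative of Tbx2 and also a factor of ES cells, had 256 and 303 in KSP-positive cells, against 517 and 957 in KSP-negative cells (difference -1.34, adjusted p = 0.210). The heart and limb factors Tbx5 and Tbx4 had differences of 2.35 and 1.13 (adjusted p = 0.219 and 0.352), and Tbx20 one of 0.60. They too were singled out after their values were seen, and 1 KSP-negative array of Tbx5 lay at the floor, on which its size depends. With 1 array left out, the difference of Tbx4 ran from 0.48 to 1.77. The T-box median was 0.47, with 2 genes over 2-fold higher and 2 lower.
Of 16 helix-loop-helix relatives, E proteins and Id inhibitors, 14 were tested and limma called none (without adjustment, 3 higher and 0 lower). The E proteins Tcf4 and Tcf12, with which Tcf21 can pair, had differences of 0.40 and 0.28. The 3 over 2-fold higher were the mesenchymal repressors Msc and Twist2 and the heart and limb factor Hand2, with differences of 1.55 and 1.26 for the first and second and a 2.005-fold higher mean for Hand2. Tcf15, a factor of somites, was the 1 gene over 2-fold lower (difference -1.24, adjusted p = 0.455). Its signals were 50.3 and 68.0 in KSP-positive cells, against 71.6 and 267 in KSP-negative cells, so KSP-negative replicate 1 came near the KSP-positive arrays. The median was 0.30, and these genes other than Msc were singled out after their values were seen.

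Of genes listed for the renal stroma, the tissue to which several of these factors belong, Col6a2, Col1a1 and Pdgfrb rose in KSP-positive cells. Whether they mark renal stroma or other mesenchyme was not tested. Of 32 listed genes, 31 were tested, 3 rose and none fell, 10 were over 2-fold higher and 2 lower, and the median difference was 0.63. Col6a2, a chain of collagen VI, had signals of 5908 and 4926 in KSP-positive cells, against 1132 and 847 in KSP-negative cells. Col1a1, a chain of collagen I, had 6041 and 4135 in KSP-positive cells, against 1353 and 952 in KSP-negative cells. Pdgfrb, a receptor of pericytes and stromal cells, had 3648 and 3384 in KSP-positive cells, against 1049 and 964 in KSP-negative cells. The groups were wide apart in each of them, with differences of 2.46, 2.14 and 1.81 (limma adjusted p = 0.0273, 0.0439 and 0.0499). These calls were lost when KSP-negative replicate 2 was left out (0.0574, 0.132 and 0.143) or the intensity trend was dropped (0.0753, 0.109 and 0.116). The call of Col1a1 was also lost without KSP-positive replicate 1 (0.0534). That of Pdgfrb was lost whichever array was left out other than KSP-positive replicate 2, at 0.0770 without KSP-positive replicate 1 and at 0.0501 once KSP-negative replicate 1 was dropped. Pdgfra, another receptor of this kind, and Fat4, a protocadherin of the renal stroma, had differences of 1.41 and 1.43 (adjusted p = 0.140 and 0.0948). The 2 over 2-fold lower were Lef1, a factor of Wnt signalling, and the guidance cue Ntn1, with -1.04 and -1.50 (adjusted p = 0.297 and 0.318). These 4 genes were singled out after their values were seen. Foxd1, which defines the renal stromal progenitor in the mouse, overlapped between the groups, with 24.8 and 53.9 in KSP-positive cells, against 45.9 and 95.3 in KSP-negative cells (difference -0.86, adjusted p = 0.614). The paper's heat map came from the arrays read here, so the call of Pdgfrb, like the direction of Tcf21, is not independent evidence.

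**Figure D4:**
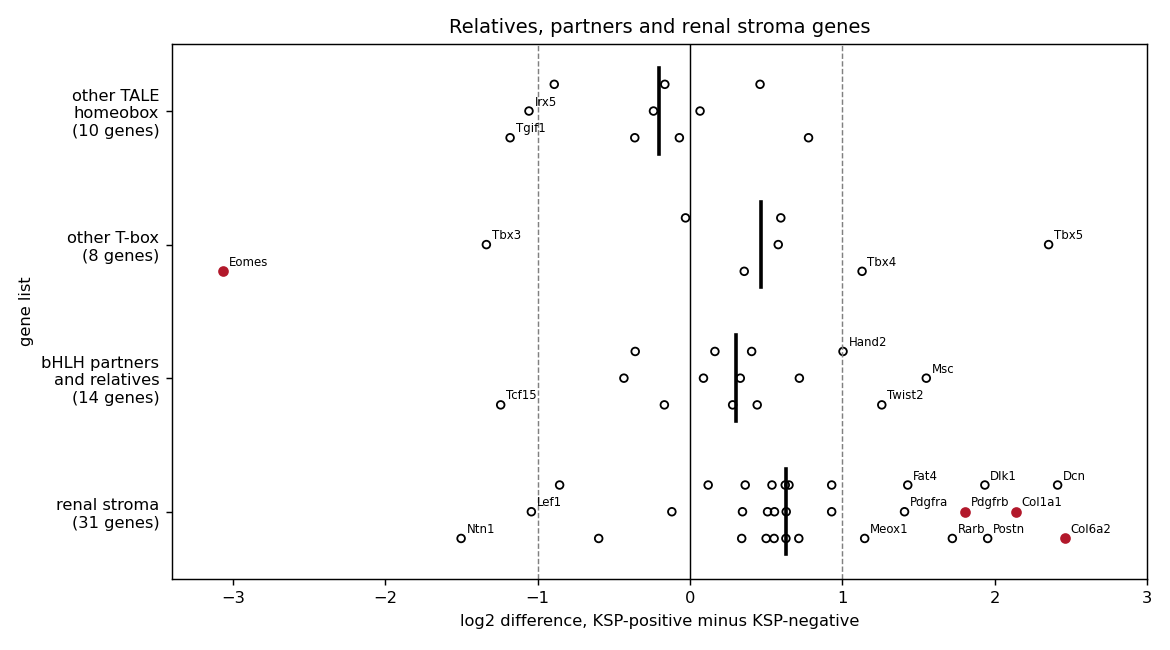
Log2 difference, KSP-positive minus KSP-negative (horizontal axis), of each tested gene in 4 lists (vertical axis); red filling stands for an adjusted p below 0.05 in limma and open circles for the rest, thick bars are medians, dashed lines mark 2-fold and genes past it are named. Eomes lies at -3.06 and the renal stroma genes have a median of 0.63.

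Markers of other cells differed strongly between the same arrays. Of 16 white blood cell genes, mainly of macrophages, 15 were tested, 9 rose and none fell, and their summed signals were 31520 and 14810 in KSP-positive cells and 2919 and 3132 in KSP-negative cells. C1qa, a complement chain made by macrophages, was at the floor in both KSP-negative arrays and at least 45.3-fold higher in KSP-positive cells, and Lyz2, Ctss and Fcgr1 had differences of 4.34, 3.98 and 4.47 (limma adjusted p = 0.0119 for C1qa and 0.0178, 0.0178 and 0.0190 for the others). C1qa and Fcgr1 passed the filter only through their KSP-positive signals, and were not tested with the filter at the 60th percentile. Their p-values rest partly on KSP-negative values raised to the floor. Of 12 genes of pluripotent cells, 11 were tested, 8 fell and none rose, with summed signals of 1622 and 2055 in KSP-positive cells and 14440 and 27790 in KSP-negative cells. Pou5f1, the central factor of the pluripotent state, Dppa5a, Fbxo15 and Lin28a had differences of -4.33, -3.51, -4.45 and -3.44 (limma adjusted p = 0.0178, 0.0150, 0.0150 and 0.0190). The paper also reported stem cell terms as lower in KSP-positive cells from these arrays, so these falls are not independent evidence. Meis1 and Tbx3 are also used by blood cells and by ES cells. The part of these cell types in the members' differences was not tested. In bulk RNA, fewer cells of a type and less RNA per cell cannot be told apart.
Cardiomyocyte genes (12 tested), which can accompany Meis and T-box factors, had a median of 0.64, and limma called none (unadjusted, 3 higher and 0 lower). Of the epicardium and mesothelium list, all 10 genes were tested, none was called (0 higher and 3 lower unadjusted), and the median was -0.08. Smooth muscle and pericyte genes (10 of 12 tested, median 0.49, none called, 2 higher and 0 lower unadjusted) and podocyte genes (9 of 13 tested, median 0.30, none called, 1 higher and 2 lower unadjusted) lay on both sides of 0. Limma called none of the tested genes of nephron progenitors (9 genes, median -0.34, 1 higher and 2 lower unadjusted), skeletal muscle (2, -1.07, 0 and 1), neurons (9, -0.63, 0 and 3), endothelium (10, 0.16, 0 and 0) and endoderm (12, -1.63, 1 and 7). Of the 12 endoderm genes, 9 were over 2-fold lower and 1 higher (7.66% and 7.92% of all 12849 genes).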

How the data were processed

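RNA of 2 KSP-positive and 2 KSP-negative samples was hybridized to Affymetrix mouse arrays. The authors deposited MAS5 signal intensities, which are linear, with 1 value for each probe set on each array. The version and scaling target of MAS5 are not given in the sources used here. The paper standardized the arrays in GeneSpring and took genes over 2-fold up in KSP-positive cells for an ontology analysis. Another ontology analysis, of genes down in these cells, gave terms related to stem cells. The paper does not give the settings of GeneSpring, so these were not repeated.

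Besides 64 control probe sets, 45037 were used, of which the annotation gives 1 gene for 34945, more than 1 for 932 and no gene for 9160. Arrays were brought to a common 75th percentile (factors 1.24, 0.874, 0.905 and 1.06), values under the 20th percentile were set to it, and log2 was taken. Probe sets whose mean exceeded the 40th percentile were fitted in limma 3.58.1 (R 4.3.3) with group means and an intensity trend. An exact permutation of 2 against 2 arrays cannot go below p = 0.333 and was not used. The procedure was run on simulated arrays with known changes. Their noise was drawn from the fitted limma model, without deviations shared between arrays, so this run cannot tell how such deviations affect the calls. The number of arrays limits the precision.

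Members, lists and tests were chosen with earlier results of these data known. All member probe sets are named. Of each list, the genes called are named when 5 or fewer and otherwise up to 4, with some genes fixed by role. Alternatives were other scalings, floors, filters, summaries of probe sets, variance models, the methods' t-test, a block for the replicate number, and each array left out, a lone array being taken to vary like those of the other fraction. Some genes are not reported here. Figures were drawn with matplotlib 3.10.9.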

Additional observations from a re-analysis of the deposited data

How the results depend on the processing

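Of the 268 comparisons of a member probe set with an alternative, 253 kept their direction and their side of the threshold, 11 passed it and 4 turned in sign, each from an uncalled value: Pbx2 with the mean of its probe sets (-0.78), Meis1 1459423_at without KSP-positive replicate 1 (-0.23; 0.84 without KSP-positive replicate 2), Tbx2 without KSP-positive replicate 2 (-0.64; 0.84 without replicate 1) and Meis2 1440091_at without KSP-negative replicate 2 (-0.014; 0.97 without replicate 1). The causes were not tested. The threshold was an adjusted p of 0.05, except for the methods' t-test, which was also read at an unadjusted p under 0.05. The 11 include the calls of that unadjusted t-test and of the replicate block, both given below. Of 483 such comparisons of 29 other named genes, all but Srpk3, Tnfsf9, Tcf15, Lef1 and Ntn1, 431 stayed on their side, 14 passed the threshold, 38 lost a call and none changed sign. Without the trend limma gave Eomes, Col6a2, Col1a1 and Pdgfrb adjusted p = 0.0879, 0.0753, 0.109 and 0.116, with no filter 0.427, 0.298, 0.392 and 0.272, and with the floor at the 40th percentile Col1a1 and Pdgfrb had 0.0516 and 0.0578 (0.0530 for Pdgfrb with no floor).

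The number of calls depends strongly on the fit. Against 83 higher and 80 lower probe sets, there were 181 and 241 for unscaled values, 45 and 49 for a floor raised to the 40th percentile, 29 and 23 without the trend, 236 and 212 with the brightest probe set of each gene and 220 and 180 with probe sets averaged within genes. In these 2 fits 12849 genes were tested. Leaving out 1 array gave 35 to 339 higher and 24 to 443 lower. With no filter limma called 0 (2132 higher and 2071 lower unadjusted), and the methods' t-test gave 1106 and 1105 at p under 0.05 and 0 after adjustment. Of the 167 listed genes tested, 12 were called higher and 9 lower, against 16 lower for unscaled values or for averaged probe sets, 19 and 20 with the brightest probe set, 5 and 5 without the trend, 0 with no filter (30 and 25 unadjusted), 26 and 18 by the methods' t-test at p under 0.05 and 0 after adjustment, and 8 to 21 and 6 to 18 with 1 array left out.

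Among the members, the brightest probe set per gene called 1 higher (Tcf21), with 1 over 2-fold higher, 0 over 2-fold lower and 0 lower without overlap. Averaged probe sets left 1 over 2-fold higher and 0 lower. For unscaled values 2 were lower without overlap. The methods' t-test called 4 higher at p under 0.05 (1417447_at of Tcf21, 1417129_a_at of Meis2, 1421193_a_at of Pbx3 and Meis3) and 1 lower (1458887_at of Tcf21). Leaving out 1 array gave 0 to 1 called lower, 3 to 5 over 2-fold higher and 1 to 2 over 2-fold lower.

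With the replicate number as a block, 851 probe sets were called higher and 779 lower, 28 and 25 of the listed genes, and 3 and 1 of the members, which were Tcf21 1417447_at, Meis2 1417129_a_at, Pbx3 1421193_a_at and, lower, Pbx2 1449261_at (limma adjusted p = 0.0108, 0.0395, 0.0322 and 0.0377). Deviations of same-numbered arrays correlated at 0.31 across probe sets. With 2 pairs and no label tying numbers to experiments, the numbers were not taken as pairs.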
